A study of Rattus norvegicus with 65 samples.

Results

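Hypothalamic RNA of 6 lean rats was compared with that of 5 sham-treated rats, all of batch A by their labels. The 11 libraries, 1 per animal, were chosen by group and batch alone and are part of 65 libraries in all, 37 of them in batch A. The study used male Wistar rats, 9 to 10 weeks old at the start. Sham-treated rats had been made obese on a high-fat diet for 6 weeks, underwent a sham operation, then chose between high-fat and low-fat food, and their whole hypothalamus was taken 4 weeks later after 10 h of fasting. The lean animals are named as such in the labels only. The study mentions a group fed the low-fat diet alone, but no label ties the lean animals to it, and their operation and body weight are not given, so leanness, diet and surgery cannot be told apart in this comparison. The other groups of batch A were 11 RYGB-treated rats (Roux-en-Y gastric bypass), 7 rats whose body weight was matched to them by food restriction (BWM), 5 rats given PYY3-36 + liraglutide and 3 saline-treated rats. Poly-A RNA was counted per gene.

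The hypothalamus senses energy stores. Leptin from fat tissue acts on its receptor Lepr, and neurons of the arcuate nucleus answer with peptides that raise food intake (Npy, Agrp) or lower it (Pomc, Cartpt). Diet-induced obesity is known for blunted leptin signalling and for reactive glia in this region. A dissected hypothalamus also carries pieces of its surroundings, among them the meninges, vessels and neighbouring brain regions, whose RNA is counted along with that of neurons and glia.

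Depth was similar in both groups. Total counts ran from 27064139 to 33299946 in lean and from 27379945 to 34128565 in sham-treated animals, with a two-sided exact permutation p of 0.632 for the means (n = 6 and 5). The number of genes with at least 1 count was higher in lean animals, at 25248 ± 453 (SD, n = 6) against 24454 ± 511 (SD, n = 5), with an exact permutation p of 0.0303. This p lay above 0.05 without lean replicate 1 or 4 (exact p = 0.0556 each) and without sham replicate 3, 4 or 5 (exact p = 0.0667 each). The 10 most abundant genes took 4.01% ± 0.726 (SD, n = 6) of the counts in lean and 4.63% ± 0.938 (SD, n = 5) in sham-treated animals (exact permutation p = 0.208). For mitochondrial rRNA and tRNA the exact permutation p was 0.19.

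The tissue label was checked against marker genes, and the libraries differed in the regions they held. Summed over 14 hypothalamic marker genes, lean replicate 2 had 13.4 CPM (counts scaled to library size by TMM) and sham replicate 2 had 21.7 CPM, while the other 9 libraries had between 52.6 and 149.6 CPM. The same 2 libraries had the highest sums of 8 cortex markers, 2461 CPM in lean replicate 2 and 4514 CPM in sham replicate 2, against 243.8 to 538.8 CPM elsewhere. The most abundant gene of this list was Nrgn, a calmodulin-binding protein of forebrain neurons. Sham replicate 1 had 1200 CPM of 8 thalamus markers, and all other libraries had 102.6 to 158.9 CPM. Most of the hypothalamic sum of sham replicate 1, 62.4 CPM, came from a single marker, Lhx9. Pituitary markers, led by Cga, the shared subunit of the glycoprotein hormones, summed to 353 CPM in lean replicate 6, 481.3 CPM in sham replicate 4 and 85.1 CPM in sham replicate 3, and to at most 17.9 CPM in the rest. None of the markers in these lists was at 0 in all 11 libraries. The sum of the hypothalamic markers was above 0 in every library, with 13.4 CPM in lean replicate 2 as the lowest. It was unequal between libraries, and this unevenness was present in both groups. How much hypothalamus each library held was not tested.

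A single gene of 19680 tested with edgeR was called, with limits of 0.05 for the adjusted p and 1 for the size of the log2 fold change. It was LOC691566, 0.00508% of the genes tested, higher in all 6 lean animals and named here after its values were seen. This gene passed the filter on low counts only through the lean animals. No gene was lower by this rule (0%). At an unadjusted p under 0.05, 1248 genes were higher (6.34% of those tested) and 685 were lower (3.48%). In 115 genes (0.584%) every lean value lay above every sham value, and in 52 genes (0.264%) every lean value lay below. The median log2 fold change over all genes was -0.01. DESeq2, run on the same 11 libraries with the same thresholds, called 301 genes higher (1.32% of 22849 genes with an adjusted p) and 23 lower (0.101%). Without lean replicate 5, edgeR called 177 genes higher (0.911%) and 2 lower (0.0103%). Of these 179 genes, 162 were among the 324 that DESeq2 called. Without lean replicate 6, edgeR called 7 genes higher, and with the replicate number as a block 6. So the number of genes called depended on the tool, on the model and on single animals, among which lean replicate 5 moved it most.

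**Figure D1:**
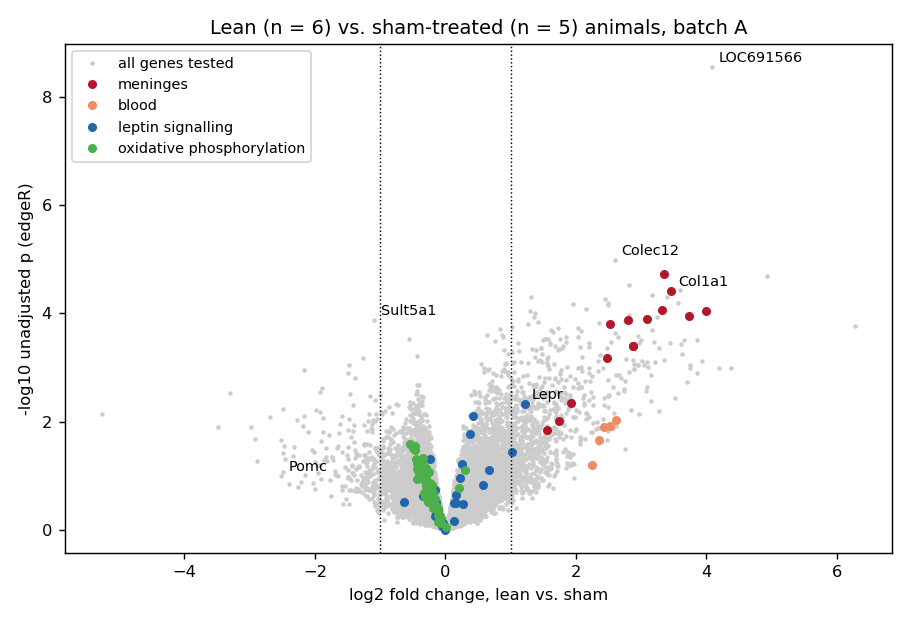
Each point is 1 of 19680 genes, with the log2 fold change of lean (n = 6) vs. sham-treated (n = 5) animals on the x axis and the negative log10 of the unadjusted edgeR p on the y axis. Colours mark 4 gene lists, and dotted lines mark an absolute log2 fold change of 1. LOC691566 stands alone at the top, and all 14 genes of the meninges list lie on the right between 1.56 and 3.99.

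LOC691566 (gene15182) is annotated as a pseudogene on chromosome 5, from 169333975 to 169334486 on the minus strand of Rnor_6.0. It had 3.64, 4.04 and 5.37 CPM as lowest, median and highest value in lean animals. In sham-treated animals it had 0.256, 0.228, 0.14, 0.218 and 0.366 CPM in replicates 1 to 5. The groups were thus far apart and did not overlap, lean replicate 5 included. The log2 fold change was 4.08 (SE 0.27, edgeR adjusted p = 5.46e-05). Behind these values stood 112 to 174 counts per lean library and 4 to 10 counts per sham library. With so few sham counts, LOC691566 passed the filter on low counts only through the lean animals. Without a filter, with 30721 genes tested, it was called as well (edgeR adjusted p = 3.53e-05). Reads with several places in the genome were shared out in fractions by the authors, so counts of a pseudogene may include reads of a near-identical copy, and its level is uncertain in that respect. Of its neighbours, Espn, 2637 bases away, had a log2 fold change of 0.26 (edgeR adjusted p = 0.917), and Hes2, 3611 bases away on the other side, had too few counts to be tested.

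Over all 65 rats, LOC691566 fell into a low and a high range. The widest gap on the log scale lay between 0.795 and 2.65 CPM (scaled over 65 libraries), with 31 animals above it. Above the gap were 6 of 6 lean animals, 0 of 5 sham-treated animals of batch A and 3 of 6 sham-treated animals of batch B. Saline-treated animals lay above it in 0 of 3 cases in batch A and 2 of 5 in batch B. Among RYGB-treated animals 5 of 11 in batch A and 2 of 3 in batch B lay above it. The counts were 3 of 7 for BWM, 4 of 5 and 2 of 5 for PYY3-36 + liraglutide in batches A and B, 3 of 4 for PYY3-36 and 1 of 5 for liraglutide. High and low animals were thus found in most groups, but the lean animals were all high and the sham- and saline-treated animals of batch A all low. Counts alone do not show whether the ranges differ in expression or in the sequence of this locus between animals, which was not tested. In larger fits the gene was no longer called. With all 37 libraries of batch A, where the other groups also set the spread, its log2 fold change was 4.08 (edgeR adjusted p = 0.168). With all 65 libraries and a term for batch, the sham-treated animals of batch B also entered the comparison. The log2 fold change of LOC691566 was then 2.505 (edgeR adjusted p = 0.344). Over 25 alternatives it passed in 23, with adjusted p-values from 6.48e-44 to 0.344.

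**Figure D2:**
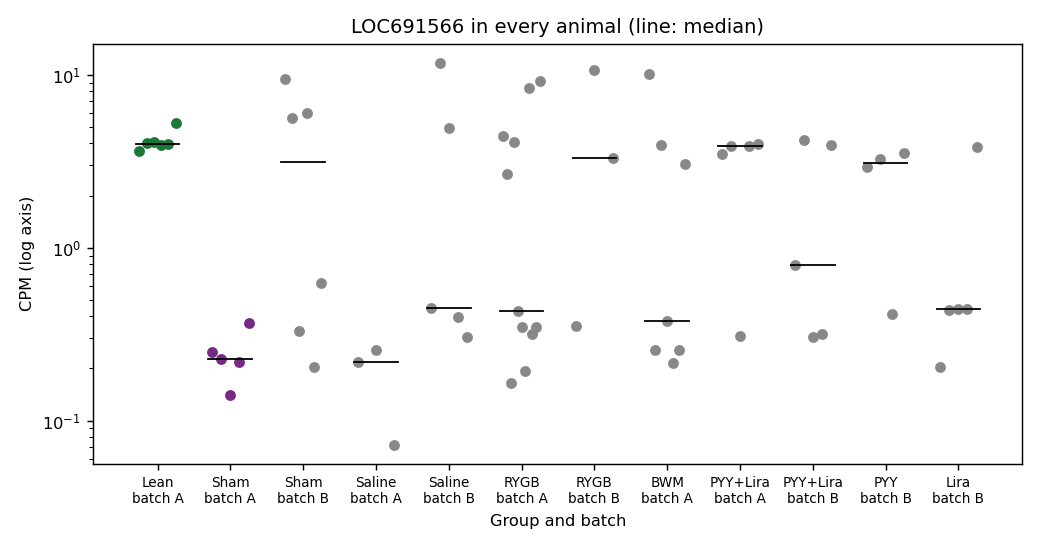
CPM of LOC691566 on a log axis in each of 65 animals, by group and batch, with a line at the median of each. The 6 lean animals lie between 3.62 and 5.27 CPM and the 5 sham-treated animals of batch A between 0.141 and 0.368 CPM, and most other groups have animals in both ranges.

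The broadest difference was in genes of the meninges, the fibroblast-rich membranes around the brain. All 14 genes of this list, which holds 13 symbols with Ogn standing for a pair of genes of the same values, had an unadjusted p under 0.05 and were higher in lean animals, with a median log2 fold change of 2.88. None of the 14 passed the adjusted threshold with edgeR. DESeq2 called 12 of them, against 1.32% of all genes called higher. Without lean replicate 5, edgeR called 11, against 0.911% of all genes. In bulk tissue, more cells of a type and more RNA per cell cannot be told apart. The summed level of the list had 135.9, 1025 and 1617 CPM as lowest, median and highest value in lean animals. In sham replicates 1 to 5 it was 99.96, 103.5, 116.8, 179.8 and 164.7 CPM. Thus 5 lean animals lay above all sham-treated animals and lean replicate 5 lay among them. The most abundant gene of the list was Igf2, a growth factor of the meninges and choroid plexus, with 37.3% of the sum.

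Col1a1, which encodes a chain of type I collagen (chromosome 10, 82745801 to 82762790), had 8.86, 80.5 and 157 CPM as lowest, median and highest value in lean animals. In sham replicates 1 to 5 it had 6.84, 3.94, 6.88, 8.51 and 9.6 CPM. Lean replicate 5 held the lowest lean value, inside the sham range, and the other 5 lay far above it. The log2 fold change was 3.46 (SE 0.55, edgeR adjusted p = 0.0899), which did not pass. Aldh1a2, an enzyme of retinoic acid synthesis, had 6.05, 43.5 and 56.1 CPM in lean and 2.78, 2.31, 3.23, 3.75 and 6.48 CPM in sham-treated animals, a log2 fold change of 3.35 (SE 0.49, edgeR adjusted p = 0.0899). Its pattern over animals was that of Col1a1. Col3a1, a fibrillar collagen of soft tissue, differed by 3.99 (SE 0.70) and Slc22a6, an organic anion transporter, by 3.74 (SE 0.67), both with an edgeR adjusted p of 0.0924. The smallest difference in the list was that of Mgp, an inhibitor of calcification, at 1.56 (SE 0.55, edgeR adjusted p = 0.395).

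**Figure D3:**
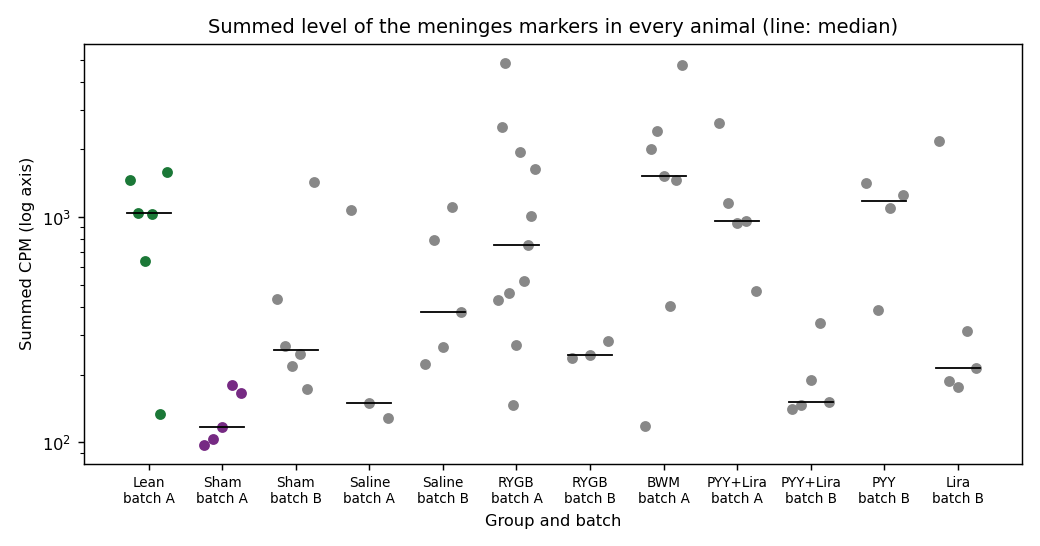
Summed CPM of the meninges markers on a log axis in each of 65 animals, by group and batch, with a line at the median of each. Of the lean animals, scaled with all 65 libraries, 5 lie between 637.9 and 1584 CPM and 1 at 133.1 CPM, among the sham-treated animals of batch A, which have the lowest median.

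By the rule for naming genes, the 5 genes of smallest p among higher genes that did not pass were Colec12, Aldh1a2, Wnt6, Aox3 and Col1a1. Colec12, a scavenger receptor of the collectin family (chromosome 18, 867048 to 1054047), had 4.73, 23.3 and 25.9 CPM as lowest, median and highest value in lean animals. In sham replicates 1 to 5 it had 3.48, 3.75, 3.05, 3.89 and 2.86 CPM. All 6 lean values were above the sham values, that of replicate 5 by the smallest margin, and the log2 fold change was 2.59 (SE 0.36, edgeR adjusted p = 0.0899). Wnt6, a secreted Wnt ligand (chromosome 9, 82033543 to 82047172), had 0.378, 8.76 and 12.3 CPM in lean and 0.256, 0.0652, 0.281, 0.255 and 0.403 CPM in sham-treated animals, a difference of 4.94 (SE 0.74). Aox3, an aldehyde oxidase, differed by 3.60 (SE 0.57) with all 6 lean values above the sham values. Such a lack of overlap was found in 0.584% of all genes. Wnt6 and Aox3 passed the filter on low counts only through the lean animals. Without lean replicate 5 all 5 passed, with edgeR adjusted p-values from 1.47e-05 for Colec12 to 0.0028 for Aox3, and over 25 alternatives these ran from 9.78e-10 to 0.865 for Colec12 and from 4.57e-08 to 0.865 for Aox3.

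Genes of collagen and matrix, a list that shares 5 symbols with the meninges list, also had many members on the higher side. Of 28 tested, 14 were higher and 0 lower at an unadjusted p under 0.05, against 6.34% and 3.48% of all genes, and the median log2 fold change was 0.66. Fn1, which encodes fibronectin (chromosome 9, 78900111 to 78969018), had 37.5, 77 and 102 CPM as lowest, median and highest value in lean animals and 30.2, 31.7, 24, 30.5 and 34.2 CPM in sham-treated animals. The groups did not overlap, as in 0.584% of all genes with higher lean values, and the difference was 1.32 (SE 0.22, edgeR adjusted p = 0.0899). Lamc1, a laminin chain of basement membranes, also did not overlap, with a smaller difference of 0.65 (SE 0.13, edgeR adjusted p = 0.101). None of the 28 passed with edgeR. DESeq2 called 8 (1.32% of all genes were called higher) and edgeR without lean replicate 5 called 6 (0.911% of all genes).

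Inflammation and gliosis was the other pathway list with many members on the higher side. Of 26 genes tested, 11 were higher and 0 lower at an unadjusted p under 0.05, against 6.34% and 3.48% of all genes. The median log2 fold change was 0.50. Without lean replicate 2 and sham replicates 1 and 2, 6 of 26 were higher and 1 lower. In the model of all 37 libraries of batch A, 6 of 30 were higher and 0 lower. None passed with edgeR, and DESeq2 called 1. Icam1, an adhesion molecule for leukocytes, had 4.41, 7.72 and 10.4 CPM as lowest, median and highest value in lean animals and 2.91, 4.11, 4, 4.26 and 4.91 CPM in sham-treated animals. Lean replicate 5 again held the lowest lean value, and the difference was 0.93 (SE 0.22, edgeR adjusted p = 0.156). Cd74, the invariant chain of MHC class II, had 3.59, 42.3 and 111 CPM in lean and 5.56, 5.35, 19.6, 23.7 and 5.13 CPM in sham-treated animals, and Vim, the intermediate filament vimentin, had a difference of 1.33 (SE 0.44, edgeR adjusted p = 0.366). Both were lower in lean replicate 5 than in any sham-treated animal and higher in the other 5 lean animals than in any of them. Gfap, the filament protein of astrocytes, had 351, 949 and 1401 CPM in lean and 379.6, 765, 812, 416 and 452 CPM in sham-treated animals. Its groups overlapped (log2 fold change 0.64, SE 0.38, edgeR adjusted p = 0.57). Aif1, a marker of microglia, had a difference smaller than its SE (-0.04, SE 0.23, edgeR adjusted p = 0.966).

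Markers of glia, neurons and vessels were counted in lists of their own, to be read against 6.34% of all genes higher and 3.48% lower at an unadjusted p under 0.05. Of 13 microglia markers 3 were higher and 0 lower at an unadjusted p under 0.05, with a median log2 fold change of 0.01. Without lean replicate 1 or 3 or sham replicate 3, 1 microglia marker was higher. Of 10 astrocyte markers none was past an unadjusted p of 0.05 in either direction (median 0.06), and of 14 neuron markers none (median -0.10). Of 10 oligodendrocyte markers 1 was lower (median -0.24). Among 9 endothelium markers 4 were higher, with a median of 0.27, and leaving out a single library gave 2 to 5 higher. Cdh5, the cadherin of endothelial junctions, was furthest apart at 1.33 (SE 0.28, edgeR adjusted p = 0.105). With edgeR on all 11 libraries none of these markers passed. DESeq2 called 1 endothelium marker, and edgeR without lean replicate 5 called 1 as well.

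Haemoglobin and other blood genes had positive differences as well. Of 5 blood genes tested, 4 were higher at an unadjusted p under 0.05, against 6.34% of all genes. The median log2 fold change was 2.43. None passed with edgeR, and DESeq2 called 1. Summed over all 7 blood genes with a value, tested or not, the level had 15.4, 29.8 and 329.9 CPM as lowest, median and highest value in lean animals. In sham replicates 1 to 5 it was 8.4, 15.2, 39.6, 14 and 6.23 CPM. Lean replicates 1 and 6 lay above the rest, and the remaining lean values overlapped with the sham values. Without lean replicate 6 the median was 1.37. The most abundant gene was Hba1, an alpha-globin chain, which shares reads with near-identical copies.

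The part of the meninges markers in the other differences was followed with their mean level as a further term in the edgeR model, an alternative chosen after seeing the data. This mean itself differed between the groups, so the term also takes up part of the group difference. The numbers at an unadjusted p under 0.05 were then 373 genes higher and 300 lower. The median log2 fold change of collagen and matrix genes was -0.08, that of inflammation and gliosis -0.25 and that of blood genes 0.29, where 5 of the collagen and matrix genes are also in the score. Other lists moved away from 0, with medians of -4.90 for pituitary markers, -3.29 for arcuate feeding peptides, -2.60 for mammillary and -1.95 for hypothalamic markers. The receptors that the study had singled out had 4 higher and 1 lower, at a median of 0.44. LOC691566 kept its call with a log2 fold change of 3.96.

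**Figure D4:**
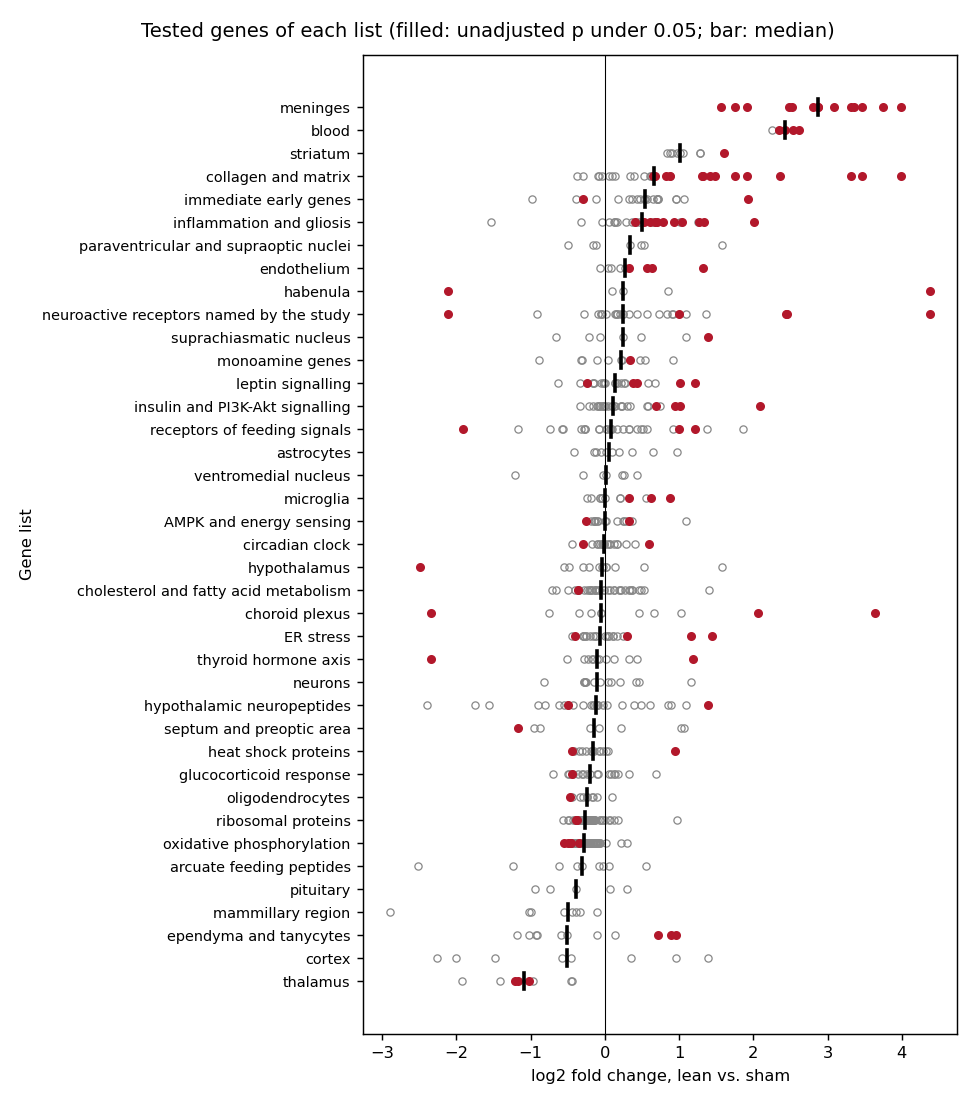
Log2 fold changes of lean vs. sham-treated animals for the tested genes of 39 lists, 1 point per gene, filled where the unadjusted edgeR p was under 0.05, with a bar at the median of each list. The meninges list has its median at 2.88 and the blood list at 2.43, and the medians of most other lists lie close to 0.

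Among receptors of neurotransmitters and peptides that the study had singled out, 4 of 28 tested were higher and 1 lower (median 0.24). This was at an unadjusted p under 0.05, where 6.34% of all genes were higher and 3.48% lower. Without sham replicate 1, 8 receptors were higher at a median of 0.53, where 1893 of all 19833 genes were higher. Without sham replicate 2 the median was 0.14. This list came from the study and partly from these samples, so its count is not independent evidence. Htr2a, the serotonin receptor 2A (chromosome 15, 56666152 to 56732469), had 0.988, 5.2 and 5.71 CPM as lowest, median and highest value in lean animals and 0.671, 0.945, 0.807, 0.582 and 0.916 CPM in sham-treated animals. The lowest lean value was that of replicate 6, just above the sham range, and lean replicate 5 had the highest, unlike in the meningeal genes. The difference was 2.45 (SE 0.41, edgeR adjusted p = 0.0899), and it passed without lean replicate 6 (2.66) or without lean replicate 5 (2.36). Glra3, a glycine receptor subunit, had a difference of 2.43 (SE 0.68, edgeR adjusted p = 0.244), also with its lowest lean value in replicate 6. Chrnb3, another receptor subunit, for acetylcholine, had 0.0631, 1.57 and 3.12 CPM in lean animals and was at 0 in 3 of 5 sham-treated animals. DESeq2 called Htr2a, Glra3 and Chrnb3. With so many sham values at 0, Chrnb3 could pass the filter on low counts only through the lean animals. Its call is therefore not evidence of its own. Without lean replicate 1, 2, 3, 4 or 6, 27 receptors were tested in place of 28.

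In the leptin signalling list 4 of 23 genes were higher and 1 was lower at an unadjusted p under 0.05, against 6.34% and 3.48% of all genes, and the median was 0.14. None passed with edgeR. The number higher was 8 without lean replicate 6, where 1901 of all 19406 genes were higher, and 0 with the meninges score in the model (edgeR, 1 lower). Lepr, the leptin receptor (chromosome 5, 120503475 to 120682281), had 3.66, 7.95 and 9.04 CPM as lowest, median and highest value in lean animals. In sham replicates 1 to 5 it had 4.6, 1.6, 4.11, 2.66 and 1.83 CPM. Lean replicates 1 to 4 lay above all sham-treated animals and replicates 5 and 6 inside their range. The difference was 1.22 (SE 0.35, edgeR adjusted p = 0.268). It passed in 1 of 25 alternatives, DESeq2 without shrinkage (adjusted p = 0.0396, in a range of 0.0396 to 0.888), and not in DESeq2 with betaPrior, where the log2 fold change was 0.94 (adjusted p = 0.0408). Stat3, the transcription factor that the receptor activates, differed by 0.43 (SE 0.13, edgeR adjusted p = 0.313), and Jak2, its kinase, by 0.38 (SE 0.14, edgeR adjusted p = 0.417). Foxo1, which represses Pomc and is held back by insulin and leptin, differed by 1.02 (SE 0.43, edgeR adjusted p = 0.499). Socs3, a feedback inhibitor of the receptor, had nearly equal medians of 3.51 CPM in lean and 3.55 CPM in sham-treated animals (log2 fold change 0.13, SE 0.35, edgeR adjusted p = 0.9).

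The arcuate feeding peptides gave no call. Of 9 genes 0 were past an unadjusted p of 0.05 with edgeR in either direction, 0 were called by DESeq2, and the median log2 fold change was -0.31. Its sign rested on sham replicate 4, since without that library it was 0.21. Npy had medians of 16.9 CPM in lean and 16 CPM in sham-treated animals (0.05, SE 0.49, edgeR adjusted p = 0.976). Agrp had medians of 0.743 and 1.21 CPM, with the highest value, 9.28 CPM, in sham replicate 4 (-1.24, SE 0.79, edgeR adjusted p = 0.584). For both genes the groups overlapped. Pomc ran from 2.87 to 124 CPM (median 37) in lean animals and was 3.71, 2.64, 1095, 192.8 and 70.4 CPM in sham replicates 1 to 5, so a log2 fold change of -2.51 had an SE of 1.42 (edgeR adjusted p = 0.557). Sham replicate 3 lay far above all other animals, and the rest overlapped. Cartpt differed by -0.61 (SE 0.87, edgeR adjusted p = 0.808), and Mc4r, the melanocortin receptor that answers to Pomc and Agrp, by 0.02 (SE 0.35, edgeR adjusted p = 0.989).

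Peptides of other hypothalamic nuclei varied by orders of magnitude within each group. Oxt, the oxytocin gene, had 0.0663, 224 and 740 CPM as lowest, median and highest value in lean animals and 284.7, 5.38, 39, 912 and 712 CPM in sham-treated animals. Avp, encoding vasopressin, had 1.06, 213 and 868 CPM in lean and 11.6, 2.28, 36.2, 295 and 634 CPM in sham-treated animals. The lowest values of both genes were those of lean replicates 2 and 5 and sham replicate 2. Hcrt, the orexin gene of the lateral hypothalamus, had 0, 17 and 144 CPM in lean and 2.84, 5.44, 552, 253 and 294 CPM in sham-treated animals (-2.39, SE 1.52, edgeR adjusted p = 0.584). Pmch, encoding melanin-concentrating hormone, differed by -1.75 (SE 1.42, edgeR adjusted p = 0.658). Trh, the releasing hormone of the thyroid axis, was lowest in the same 3 libraries as Oxt and Avp and differed by -0.15 (SE 1.06, edgeR adjusted p = 0.969), and Crh, that of the stress axis, by -0.12 (SE 0.62, edgeR adjusted p = 0.958). With SEs over 1 on the log2 scale, even a 2-fold difference in Oxt, Avp, Hcrt, Pmch or Trh was not detectable in these animals. Of 29 neuropeptide genes tested, 1 was higher and 1 lower at an unadjusted p under 0.05.

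**Figure D5:**
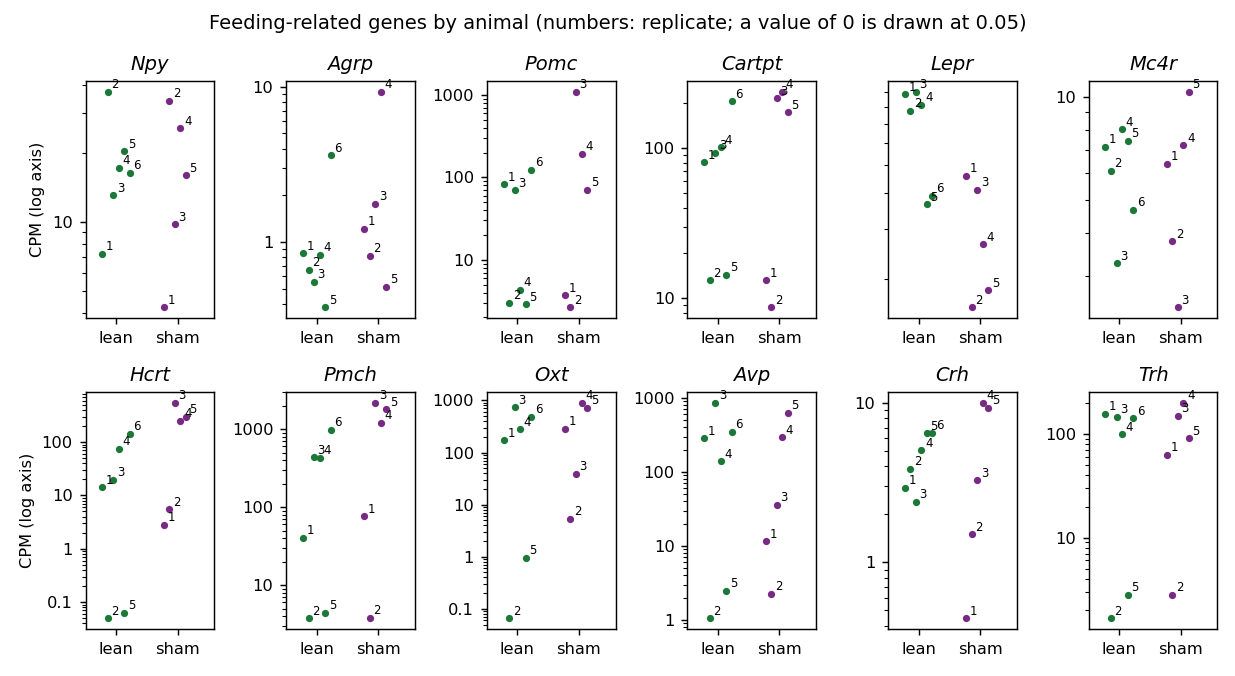
CPM of 12 feeding-related genes on log axes in 6 lean and 5 sham-treated animals of batch A, with the replicate number beside each point. Oxt, Avp, Pmch and Trh have their lowest values in lean replicates 2 and 5 and sham replicate 2, a value of 0 is drawn at 0.05, and Lepr is higher in lean replicates 1 to 4 than in any sham-treated animal.

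At an unadjusted p under 0.05, 685 genes were lower in lean animals against 1248 higher, an order that turned without lean replicate 6, with 2020 lower and 1901 higher. Among those of smallest p were Sult5a1, Ddhd1, Aig1 and Cxcr5, none of which passed. In these 4 every lean value lay below every sham value, as in 52 of all genes (0.264%). They were picked by p from the same values, so this adds no support. For Cxcr5 the margin was slight, with 0.388 CPM as highest lean and 0.391 CPM as lowest sham value (scaled over 65 libraries). Sult5a1, a sulfotransferase (chromosome 19, 55952861 to 55978583), had 1.96, 2.41 and 3.09 CPM as lowest, median and highest value in lean animals. In sham replicates 1 to 5 it had 4.22, 6.81, 5.13, 6.11 and 4.58 CPM. Lean replicate 5 lay with the other lean animals here, and the difference was -1.09 (SE 0.20, edgeR adjusted p = 0.0924). Ddhd1, a phospholipase, had 60.9, 70.1 and 74.2 CPM in lean and 84.4, 97.4, 98, 103 and 125 CPM in sham-treated animals, a difference of -0.55 (SE 0.11, edgeR adjusted p = 0.101). Aig1, a hydrolase of fatty acid esters, differed by -0.44 (SE 0.10) and Cxcr5, a chemokine receptor of B cells, by -1.47 (SE 0.34, edgeR adjusted p = 0.142), the latter at under 1.2 CPM in all libraries. Without lean replicate 5, Sult5a1 passed with an edgeR adjusted p of 0.0454, in a range of 2.8e-05 to 0.865 over 25 alternatives, and DESeq2 called Sult5a1 and Cxcr5.

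Genes of oxidative phosphorylation encode the respiratory chain and ATP synthase. Of 77 tested, 74 had a negative log2 fold change, as did 10244 of all 19680 genes, and the median was -0.28. At an unadjusted p under 0.05, 5 of the 77 were lower, against 3.48% of all genes, and 0 were higher. None passed with edgeR or DESeq2. Their summed level had 10081, 13054 and 16790 CPM as lowest, median and highest value in lean animals and was 12921, 16696, 16554, 16456 and 15461 CPM in sham replicates 1 to 5. Lean replicate 6 lay above all sham-treated animals, and lean replicates 1, 3 and 4 lay below all of them. Without lean replicate 6, 43 of the 77 genes were lower at an unadjusted p under 0.05, and the median was -0.38, but in that fit 2020 of all 19406 genes were lower at this threshold. Leaving out another library gave 0 to 28 of the 77, with 0 without lean replicate 1, 3 or 4 or sham replicate 4 or 5 (edgeR, 10 of 77 with DESeq2 on all 11 libraries). Ribosomal protein genes had small negative differences as well. Of 95 tested, 89 had a negative log2 fold change, 2 were lower at an unadjusted p under 0.05, a smaller share than the 3.48% of all genes, and the median was -0.27. Without lean replicate 6, whose sum of 24209 CPM was the highest of the 11 libraries, 76 of them were lower at an unadjusted p under 0.05, and leaving out any other single library gave 0 to 8.

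In the thalamus, striatum and mammillary lists all tested genes had 1 sign. All 8 thalamus markers had a negative log2 fold change, with a median of -1.09 and 3 of them lower at an unadjusted p under 0.05. This rested on sham replicate 1, the library with 1200 CPM of these markers, since without it the median was 0.08, with 0 lower and 1 higher at an unadjusted p under 0.05 with edgeR. Leaving out any single lean library gave 0 or 1 lower, at medians from -1.23 to -1.05, and DESeq2 had 1 lower at that threshold. All 8 mammillary markers had a negative one as well, with a median of -0.49 and none past an unadjusted p of 0.05 with edgeR or DESeq2. Without sham replicate 3 this median was 0.16, and without lean replicate 6 it was -1.39 with 2 lower. All 9 striatum markers had a positive one, with a median of 1.01, and 1 of them, Pde10a, a phosphodiesterase of striatal projection neurons, was higher at an unadjusted p under 0.05 (1.61, SE 0.49, edgeR adjusted p = 0.295). Their summed level ran from 369.4 to 1844 CPM in lean and was 155.8, 391.6, 129.4, 732.7 and 1001 CPM in sham replicates 1 to 5, so the groups overlapped. Without lean replicate 2 and sham replicates 1 and 2, the 3 libraries that stood apart in cortex or thalamus markers, its median was 0.30, and without sham replicate 5 it was 1.49, with 5 of 9 higher at an unadjusted p under 0.05.

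The other lists had medians near 0 or few members past an unadjusted p of 0.05. Their counts are to be read against 6.34% of all genes higher and 3.48% lower. Immediate early genes had a median of 0.54 with 1 of 21 higher and 1 lower, and Fos, an early marker of neuronal activity, differed by 0.72 (SE 0.43, edgeR adjusted p = 0.575) with its highest value, 99.6 CPM, in lean replicate 2. Without that library the median of the list was -0.06, with 0 higher and 1 lower (edgeR). It was 0.71 with 5 higher without lean replicate 3, and 0.85 with 4 higher without sham replicate 2. Insulin and PI3K-Akt genes had 4 of 28 higher, among them Igfbp2, a carrier of insulin-like growth factors (2.09, SE 0.46, edgeR adjusted p = 0.128). Like the meningeal genes, Igfbp2 was inside the sham range in lean replicate 5. Leaving out a single library gave 2 to 8 of these 28 genes higher. The 8 were without lean replicate 6, where 1901 of all 19406 genes were higher. ER stress genes had 3 of 22 higher and 1 lower, and heat shock proteins 1 of 14 in each direction. Without lean replicate 6, where 2020 of all 19406 genes were lower, ER stress genes had 2 higher and 6 lower. Heat shock proteins then had 0 higher and 3 lower. Without sham replicate 1, ER stress genes had 1 higher and 3 lower, and heat shock proteins 0 higher and 2 lower. Glucocorticoid response, cholesterol and fatty acid metabolism, AMPK, circadian clock, thyroid hormone and monoamine genes had at most 1 member past that threshold in each direction. Choroid plexus markers had 2 of 11 higher and 1 lower, with Aqp1, a water channel also found in other epithelia and vessels, at 3.63 (SE 0.79, edgeR adjusted p = 0.12) and Ttr, the thyroxine carrier that leads this list, at -2.34 (SE 1.03, edgeR adjusted p = 0.504). Sham replicate 2 had 686.4 CPM of these markers and the other sham-treated animals 15.6 to 114.3 CPM, and without it 4 were higher and 0 lower at an unadjusted p under 0.05 (edgeR), with a median of 0.41 in place of -0.06. Of 29 receptors of feeding signals 2 were higher and 1 lower, of 11 ependyma and tanycyte markers 3 were higher while 7 had a negative log2 fold change (median -0.51), and of 5 habenula markers 1 went each way. Of 7 markers of the suprachiasmatic nucleus 1 was higher, and of 8 of septum and preoptic area 1 was lower. In the lists for cortex, pituitary, the ventromedial nucleus and the paraventricular and supraoptic nuclei none was past that threshold with edgeR, and DESeq2 had 1 lower for the ventromedial nucleus. Without lean replicate 1, 2, 3, 4 or 6, 4 habenula markers were tested and 0 were higher. Single libraries decided or moved some of these medians. The median of ependyma and tanycyte markers was -0.12 without sham replicate 1 and -0.18 without sham replicate 2. Without lean replicate 6 or sham replicate 3, 1 of these markers was higher. That of cortex, -0.51, was -2.13 with 3 lower without lean replicate 2 and 1.40 with 1 higher without sham replicate 2, and that of pituitary, -0.39, was -2.82 with 2 lower without lean replicate 6 and 0.46 without sham replicate 4. Among the hypothalamic region markers 1 of 13 was lower, Lhx9, at -2.495 (SE 0.75, edgeR adjusted p = 0.288), with 36.6 CPM in sham replicate 1 as its highest value.

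The place of the lean animals among the other groups was read from a model of all 37 libraries of batch A. The comparisons with sham-treated animals share the same 5 animals, so their values are given side by side only. Lean vs. sham gave 0 calls in this model, with 1425 genes higher and 1427 lower at an unadjusted p under 0.05 (edgeR), and lean vs. saline gave 0 calls (0%), with 250 higher and 235 lower. For sham vs. saline the calls were 0 as well (0%), with 1397 higher and 1180 lower at an unadjusted p under 0.05. RYGB vs. sham had 226 genes higher (1.04% of 21789 tested) and 65 lower, and BWM vs. sham had 262 higher (1.2%) and 29 lower. PYY3-36 + liraglutide vs. sham had 0 calls (0%), with 2131 higher and 2516 lower at an unadjusted p under 0.05. Lean animals were thus not separated by any call from the saline-treated animals, of which there were 3.

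Summed over the meninges list, the sham-treated animals of batch A had the lowest median of all groups. The median log2 fold change of the meninges genes against these animals was 2.88 in lean and 3.51 in RYGB-treated animals. It was 3.76 in BWM and 3.33 in PYY3-36 + liraglutide-treated animals. Called higher were 11 of 14 in RYGB-treated animals (1.04% of all genes) and 11 of 14 in BWM animals (1.2% of all genes). In lean and in PYY3-36 + liraglutide-treated animals 0 of 14 were called in the same model. Against saline-treated animals the median in lean animals was 1.18, with 0 of 14 past an unadjusted p of 0.05. Summed over the list, on the scale of all 65 libraries, sham-treated animals ran from 97.7 to 180.2 CPM in batch A and from 172.2 to 1436 CPM in batch B. Saline-treated animals of batch A ran from 128.6 to 1075 CPM and BWM animals from 118.3 to 4730 CPM. High and low animals thus occurred in both of these groups. With all 65 libraries and a term for batch, the sham group also held the animals of batch B. The median of the meninges genes in lean vs. sham was then 1.01.

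Lepr and Htr2a were low in the sham-treated animals of both batches. Their medians there were the lowest of all groups. Median levels of Lepr on the scale of all 65 libraries were 8.07 CPM in lean, 2.66 CPM in sham-treated animals of batch A and 1.96 CPM in those of batch B, 5.22 CPM in saline-treated animals of batch A, 6.88 CPM in RYGB-treated and 4.91 CPM in BWM animals of batch A. The difference of Lepr from saline-treated animals was 0.38 in lean animals (SE 0.64, edgeR adjusted p = 1). Htr2a had medians of 5.29 CPM in lean, 0.808 CPM and 1.19 CPM in sham-treated animals of batches A and B and 2.22 CPM in saline-treated animals of batch A. For Sult5a1 the lean values lay below those of sham-treated animals of either batch, with a highest lean value of 3.03 CPM and lowest sham values of 4.12 CPM in batch A and 4.15 CPM in batch B. Its difference in lean vs. saline was -0.74 (SE 0.34, edgeR adjusted p = 1). Other groups, among them BWM with 2.08 CPM as lowest value, overlapped with the lean animals.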

How the data were processed

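Whole hypothalamus was sequenced from poly-A RNA as 1 stranded library per animal. Per the submitters' processing notes, the authors used bcl2fastq 2.20.0.422, cutadapt 1.16, STAR 2.7.2b and featureCounts 1.6.4 with the rat genome Rnor_6.0. Reads with several places or genes were counted as fractions, so the deposited values are estimated counts per gene, with 30.3% of values above 0 not whole at a tolerance of 1e-06. They were rounded, which moved a library total by 0.00592% at most.

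Genes were kept by filterByExpr (minimum count 10, minimum total 15), scaled by TMM and tested with the robust quasi-likelihood model of edgeR 4.0.16 in R 4.3.3, with Benjamini-Hochberg adjustment over all genes tested and the group as the only term. The SE of an edgeR log2 fold change was taken as its absolute size divided by the square root of the F statistic of its test. Gene levels are CPM after TMM scaling. DESeq2 1.42.0, other scalings, filters, samples and covariates, and leaving out each library were alternatives. The procedure was tested on simulated data. Library measures were compared by exact permutation in Python 3.11.15 with scipy 1.17.1.

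Named genes were the 10 of smallest adjusted p among those called in each direction, or, with fewer than 5 called, also the 5 of smallest p that were not, leaving out symbols that begin with LOC, RGD, AABR or Mir. Added to these were called pathway genes, a set of feeding and glial genes, and cell type markers. LOC691566, Htr2a and other list members outside this rule were named after their values were seen. Members and the 39 lists were chosen with earlier results of these data known.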

Additional observations from a re-analysis of the deposited data

Results flagged for a closer look

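Of 140 groups of values checked, 25 had a highest or lowest animal far from the rest by Dixon's ratio. The limits used give about 1 in 20 by chance only for independent, normally distributed values. CPM need not be so distributed and some groups share genes, so no excess over chance can be read from this number. The causes were not tested.

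Lean replicate 2 had the highest lean values of Fos (99.6 CPM), immediate early genes (2462 CPM summed), cortex markers (2461 CPM) and choroid plexus markers (117.1 CPM). Lean replicate 6 had the highest lean values of Agrp (3.61 CPM), Aif1 (47.5 CPM), LOC691566 (5.37 CPM), and of the summed pituitary (353 CPM), blood (329.9 CPM), mammillary (38.8 CPM) and ribosomal protein genes (24209 CPM). Lean replicate 5 had the lowest lean value of Colec12 (4.73 CPM).

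Sham replicate 1 had the highest sham sums of thalamus markers (1200 CPM) and of septum and preoptic markers (447 CPM). Sham replicate 2 had the highest sham sums of cortex markers (4514 CPM), choroid plexus markers (686.4 CPM), thyroid hormone genes (2068 CPM), AMPK genes (1068 CPM) and glucocorticoid response genes (1071 CPM). Sham replicate 3 had the highest sham values of Pomc (1095 CPM), blood genes (39.6 CPM) and mammillary markers (71.6 CPM). Sham replicate 4 had the highest sham values of Agrp (9.28 CPM), pituitary markers (481.3 CPM) and receptors of feeding signals (1373 CPM).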

How the results depend on the processing

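The edgeR counts of 1 gene higher and 0 lower were the same with RLE or upper quartile scaling, without a filter or with a filter of 1 CPM, and with ribosomal, choroid plexus or meninges scores as covariates, while genes lower at an unadjusted p under 0.05 numbered 685 in the reported fit and 300 to 912 in these. The counts of calls were also the same without lean replicate 2 and sham replicate 2, and without these and sham replicate 1, alternatives chosen after seeing the data, as was the meninges score. Genes higher numbered 240 with DESeq2 and betaPrior, 301 with DESeq2 without shrinkage, 0 with all 37 libraries of batch A and 0 with all 65 libraries, both by edgeR. Genes lower numbered 17 and 23 with these settings of DESeq2. Without a fold threshold the counts were 358 and 388 with DESeq2, and 0 and 0 in the larger edgeR models, which had 1425 and 1388 genes higher at an unadjusted p under 0.05. Of genes in lists, DESeq2 called 23 and 28. With the replicate number as a block, 6 genes were higher, 6 passed without a fold threshold and 1 gene in lists passed. Correlations between lean and sham-treated animals of the same number ran from -0.0462 to 0.53. Those between animals of different number were not computed, so these values cannot decide on a pairing.

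Leaving out each library in turn gave 1 to 177 genes higher, 0 to 2 lower, 1 to 193 without a fold threshold and 0 to 22 in lists, the highest of each without lean replicate 5, and 7 genes were higher without lean replicate 6. The difference in genes with a count ran from 687.1 to 980.1, and its exact permutation p was 0.0556 without lean replicate 1 or 4 and 0.0667 without sham replicate 3, 4 or 5. The cause of these shifts was not tested.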
